A study of Mus musculus with 12 samples.

Results

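Adult wildtype mouse hearts were compared with hearts of the untreated MCM control line, 2 hearts against 3, on Illumina whole-genome bead arrays. Sample titles name 1 heart for each array, and whether animals were pooled is not stated in the sources used here. These 5 arrays, taken by their labels, are part of a series of 12 that set out to find genes changed by expanded repeat RNA in the mouse heart, a model of the disease myotonic dystrophy type 1. The adult wildtype animals were of strain FVB with no transgene named. The MCM animals were adult, also labelled FVB, untreated, and named as the control line for EpA960/MCM mice, in which tamoxifen switches on an expanded CUG repeat RNA in the heart. MCM is the usual short name of MerCreMer, a Cre recombinase fused to mutated estrogen receptor domains, which in the widely used heart line is driven by the Myh6 promoter. Whether the MCM control animals also carried EpA960, and the sex, exact age, litter, housing and hour of collection of either group, are not given in the sources used here. No sample on either side was induced, so the comparison holds 2 kinds of control that differ in line and in any condition that went with it. Nothing in the labels says how the hearts within a group were related, so the p-values measure the spread between these arrays. The other arrays, 3 from hearts 72 h and 3 from hearts 1 week after induction in EpA960/MCM mice and 1 from a wildtype heart at embryonic day 14 (E14), entered the model to estimate spread, and their values are set beside some results.

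The mammalian clock is a loop in which the transcription factors CLOCK and BMAL1 (encoded by Arntl) bind E-boxes and switch on Per, Cry, Nr1d and Dbp genes, whose products then act back on the loop. PER and CRY proteins repress CLOCK and BMAL1, and the nuclear receptors encoded by Nr1d1 and Nr1d2 repress Arntl. Arntl transcript therefore peaks when transcripts such as Per2, Dbp and Tef are low, and the heart has its own copy of this clock, so the level of these genes depends on the hour at which a heart is taken.

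On the adult wildtype arrays 14433 and 15002 probes were detected, against 15154, 14401 and 14846 on the MCM arrays. Levels are log2 signals after background correction and quantile normalization. Across genes the adult wildtype arrays correlated with each other at 0.994 and the MCM arrays with one another at 0.985 to 0.993, while pairs of adult wildtype and MCM arrays correlated at 0.974 to 0.978. Myh6, the alpha myosin heavy chain that defines adult mouse heart muscle, was at 15.96 and 16.01 in adult wildtype and at 15.97 to 16.01 in the 3 MCM hearts, near the top of the scale. The 4 probes of Esr1, the gene that supplies the receptor domains of MerCreMer, were detected on none of the 12 arrays (4.93 to 5.51), so they did not report the transgene. Xist, which is made from the inactive X chromosome, was at 5.01 and 4.98 in adult wildtype and at 10.82, 11.39 and 5.07 in MCM hearts. The Y-linked Eif2s3y was at 5.72 and 5.55 in adult wildtype and at 9.80, 5.04 and 11.08 in MCM hearts, so MCM replicate 1 carried both signals. A different Y-linked gene, Kdm5d, was at 7.75 and 7.65 in adult wildtype, where Eif2s3y was dark, and at 6.92, 5.03 and 8.03 in MCM hearts. The 8 tested atrial marker genes had summed linear signals of 106835 to 116440 in adult wildtype and of 121074, 150095 and 24298 in MCM hearts, so MCM replicate 3 stood apart in its atrial genes.

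Of 10169 tested genes, 266 were higher and 316 lower in adult wildtype than in MCM hearts (limma on group means over all 12 arrays, Benjamini-Hochberg adjusted p below 0.05). That is 5.72% of the genes tested, 2.62% higher and 3.11% lower, and 1977 genes had an unadjusted p below 0.05. The difference was at least 2-fold for 219 genes, 96 of them higher and 123 lower, while the median over all genes was 0.02 on the log2 scale. The 2 adult wildtype arrays lay outside the range of the 3 MCM arrays for all 582 called genes, but this was so for 43.5% of all genes tested, 23.1% with both adult wildtype arrays above and 20.3% with both below. Leaving out adult wildtype replicate 1 left 187 calls, and leaving out adult wildtype replicate 2 left 201. Without MCM replicate 1 there were 316 calls, and without MCM replicate 2 there were 343. With MCM replicate 3 as the sole MCM heart, and so without the MCM arrays high in Xist, the median over all genes was 0.01. Arrays high in Xist from hearts at 72 h and E14 stayed in that model. With the Xist state of each array as a covariate 490 were called, 243 higher and 247 lower. Of the called genes, 168 had a further probe detected on every array of the brighter group. All such probes differed in the same direction for 137 of these genes, and by at least 0.5 of the log2 difference for 99.

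**Figure D1:**
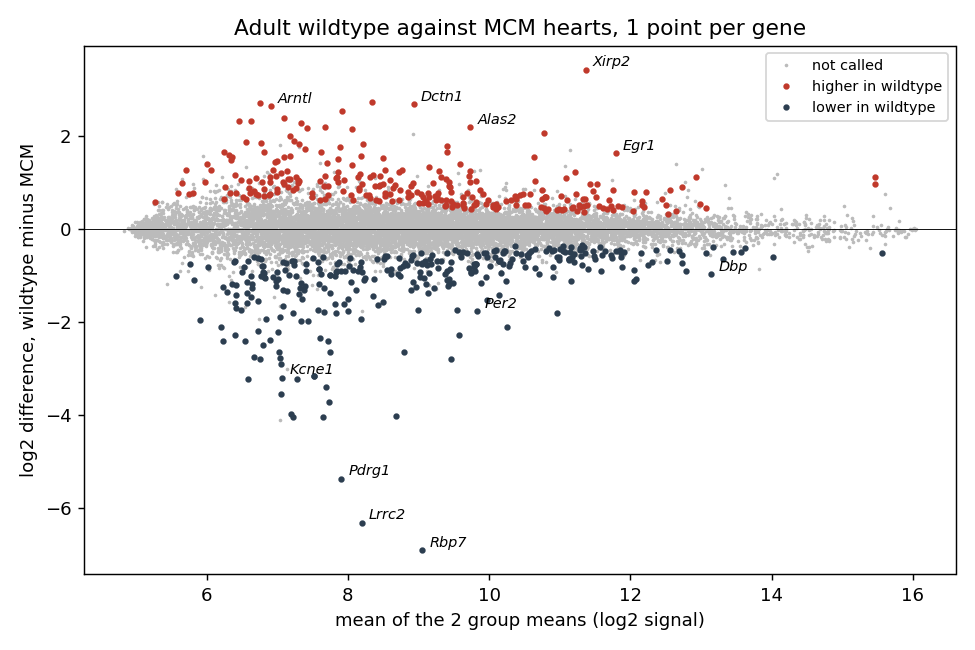
Log2 difference between adult wildtype and MCM hearts (vertical axis, positive where adult wildtype was higher) against the mean of both group means in log2 signal (horizontal axis), 1 point per gene. The 316 genes called lower reach -6.90 at Rbp7, which was dark in adult wildtype (at least 49.4-fold lower). The 266 called higher reach 3.42 at Xirp2.

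Clock genes differed in both arms of the loop. Arntl and Clock were higher and Per2, Per3, Dbp, Tef and Noct lower in adult wildtype hearts. Of 14 tested core clock genes 3 were called higher and 3 lower, and of 14 tested clock output genes none was called higher and 3 lower, against the 5.72% of all genes called. The median log2 difference was -0.09 over the core clock genes and -0.17 over the output genes, against 0.02 over all genes. Promoter sequences are shown here for 4 clock genes, to set those that carry a canonical motif and were lower beside those that carry one and did not pass the test. They come from RefSeq (GRCm38.p6), run from 250 bases before to 30 after the start, read 5′ to 3′ on the gene's own strand, and have the motif in capitals: D-boxes (TTATGTAA) in Per3 and E-boxes (CACGTG) in the others.
Per3 (chr4:151044636-151044915, minus strand): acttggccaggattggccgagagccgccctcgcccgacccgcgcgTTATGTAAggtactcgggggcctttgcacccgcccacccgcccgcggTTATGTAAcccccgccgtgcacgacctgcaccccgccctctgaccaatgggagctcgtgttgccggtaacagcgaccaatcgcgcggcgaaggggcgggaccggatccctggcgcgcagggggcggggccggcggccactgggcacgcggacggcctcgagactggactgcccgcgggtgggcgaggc
Tef (chr15:81802423-81802702, plus strand): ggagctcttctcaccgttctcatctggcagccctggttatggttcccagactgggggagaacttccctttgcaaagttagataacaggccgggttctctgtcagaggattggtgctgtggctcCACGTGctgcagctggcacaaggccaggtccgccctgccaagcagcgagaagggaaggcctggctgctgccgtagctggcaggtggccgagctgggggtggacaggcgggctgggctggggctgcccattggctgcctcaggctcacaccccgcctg
Ciart (chr3:95882199-95882478, minus strand): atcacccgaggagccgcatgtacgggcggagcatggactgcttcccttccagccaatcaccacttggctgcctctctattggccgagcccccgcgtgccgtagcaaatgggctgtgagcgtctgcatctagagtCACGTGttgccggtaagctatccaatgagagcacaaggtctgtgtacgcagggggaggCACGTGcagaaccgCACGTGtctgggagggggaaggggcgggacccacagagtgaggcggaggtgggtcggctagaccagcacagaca
Per1 (chr11:69098699-69098978, plus strand): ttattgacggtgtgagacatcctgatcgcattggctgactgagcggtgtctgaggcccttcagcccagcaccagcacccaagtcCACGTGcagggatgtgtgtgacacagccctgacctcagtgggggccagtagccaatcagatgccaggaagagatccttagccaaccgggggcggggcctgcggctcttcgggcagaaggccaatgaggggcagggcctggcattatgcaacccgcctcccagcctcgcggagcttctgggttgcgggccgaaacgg
Both strands were searched for the E-box, for the D-box as TTATGTAA or TTACGTAA, and for the ROR element TAGGTCA, and none of these strings contains another. The Per3 window held D-boxes 205 and 158 bases before the start. The Tef window shown held an E-box 127 bases before it, and the Ciart window held E-boxes at 116, 58 and 44 bases. The Per1 window shown held an E-box 166 bases before the start. A second Per1 window, not shown, held none of the strings, and a second Tef window held an E-box 138 bases before its start. Of 25 clock and output genes with a window, 6 held the E-box in at least 1 window (Ciart, Klf15, Per1, Slc41a3, Tef and Tspan4), against 6.79% of 32851 RefSeq windows. Some of these genes had several windows, so counts of genes and shares of windows are unlike measures. The D-box was found in 2 genes (Per3 and Timeless) and in 1.01% of windows, and the ROR element in 1 (Leo1) and in 2.48% of windows. Only these exact strings were counted. Variant sites, in Arntl or any other gene, were not looked for, so a window without a string is not shown to lack a site. Of the genes with an E-box only Tef was called, and of those with a D-box only Per3. Per2, Bhlhe40 and Csnk1d had no window, so their promoters were not searched.

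Arntl, which encodes BMAL1, was at 8.21 and 8.26 in adult wildtype hearts, against 5.62, 5.31 and 5.85 in MCM hearts. It was detected on both adult wildtype arrays and dark on every MCM array, and so at least 2.60-fold higher (log2 difference 2.64 ± 0.20 SE, adjusted p = 6.96e-06). A fold is written "at least" where the gene was dark in a group, and is then taken against the lowest detectable signal. In the other hearts of the MCM line Arntl was at 5.80, 6.27 and 6.02 at 72 h and at 8.43, 8.61 and 8.66 at 1 week, so the 1 week hearts stood above both adult wildtype arrays. Clock, its partner, was at 11.13 and 11.23 in adult wildtype, against 10.26, 10.16 and 10.56 in MCM hearts (1.80-fold higher, adjusted p = 0.00275). The groups did not overlap, and the call was lost when MCM replicates 1 and 2 were both left out (adjusted p = 0.128). Bhlhe40, a repressor of CLOCK and BMAL1 that also responds to many stimuli, was at 12.08 and 11.63 in adult wildtype and at 11.13, 11.31 and 11.06 in MCM hearts (1.61-fold, adjusted p = 0.0353). Its call was lost without adult wildtype replicate 1 (adjusted p = 0.362) and without MCM replicate 1 (0.110), 2 (0.058) or 3 (0.0885).

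Among the repressors of the loop, Per2 was at 8.90 and 8.99 in adult wildtype hearts, against 10.72, 11.13 and 10.32 in MCM hearts. It was 3.42-fold lower (log2 difference -1.77 ± 0.21 SE, adjusted p = 4e-04), with every adult wildtype value more than a log2 unit below every MCM value. A second Per2 probe was at 9.24 and 9.05 in adult wildtype and at 10.65, 10.66 and 10.11 in MCM hearts, the same direction. Per3 was at 7.21 and 7.70 in adult wildtype and at 8.47, 8.39 and 8.24 in MCM hearts (log2 difference -0.91 ± 0.19, adjusted p = 0.0167), and its second probe differed by -0.97. That call was lost without adult wildtype replicate 1 (adjusted p = 0.222) and without MCM replicate 1 (0.0701) or 2 (0.0555). Csnk1e, a kinase that phosphorylates PER proteins, was 0.49 lower (adjusted p = 0.0493), which was lost on leaving out any 1 of the 5 arrays (adjusted p 0.0539 to 0.248), and its second probe differed by 0.11. Per1 was at 10.68 and 10.67 in adult wildtype and at 10.68, 10.79 and 10.16 in MCM hearts (adjusted p = 0.755), so the groups overlapped. It was called in a single alternative, with the Xist state as a covariate (log2 difference 0.47, adjusted p = 0.0487).

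The other members of the loop did not pass. Nr1d1, the REV-ERB alpha receptor, was at 9.31 and 9.30 in adult wildtype and at 8.95, 8.84 and 8.76 in MCM hearts (adjusted p = 0.207). Nr1d2 was at 10.42 and 10.27 in adult wildtype and at 10.86, 10.76 and 10.89 in MCM hearts (adjusted p = 0.095), so its difference had the opposite sign to that of Nr1d1. Ciart, a repressor that tracks the E-box rhythm, was at 7.85 and 8.16 in adult wildtype and at 9.05, 9.70 and 7.97 in MCM hearts (log2 difference -0.90, adjusted p = 0.239), with MCM replicate 3 inside the adult wildtype range. Log2 differences were -0.15 for Cry2, -0.39 for Rora, 0.16 for Csnk1d and -0.03 for Timeless. Npas2, Cry1 and Hlf were dark on all 12 arrays and could not be compared.

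Of the clock-controlled PAR bZIP factors, which bind D-boxes, Dbp was at 12.64 and 12.68 in adult wildtype hearts, against 13.54, 13.97 and 13.39 in MCM hearts. The difference was -0.97 ± 0.15 on the log2 scale (adjusted p = 0.00235), with no overlap. Tef was at 9.90 and 9.88 in adult wildtype and at 10.67, 10.46 and 10.91 in MCM hearts (-0.79 ± 0.12, adjusted p = 0.003). A second Tef probe was at 7.38 and 7.39 in adult wildtype and at 8.71, 8.66 and 8.75 in MCM hearts. Noct, a rhythmically expressed gene also called nocturnin, was at 9.43 and 9.44 in adult wildtype and at 10.86, 11.10 and 10.60 in MCM hearts (-1.42 ± 0.19, adjusted p = 0.000883). Its second probe had a log2 difference of -0.50 (unadjusted p = 0.0722), smaller than that of the first.

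The calls of Arntl, Clock, Per2, Dbp, Tef and Noct remained in each of the 5 fits that left out a single array. The Noct call was lost without MCM replicates 1 and 2 together (adjusted p = 0.0634). The 11 other output genes tested did not pass. They ranged from -0.66 for Tspan4 (adjusted p = 0.151) to 0.72 for Slc41a3, a magnesium transporter (adjusted p = 0.0546). Usp2 (-0.40), Nampt (-0.57), Herpud1 (-0.23) and Kcnip2 (-0.10) lay below 0, Tns2 (0.45) and Leo1 (0.44) above it, and Klf15 (-0.07), Klf9 (0.05) and Pnpla2 (0.07) close to it. Further probes differed by 0.20 and -0.26 for Slc41a3 and by -0.56 for Tns2. Those of Usp2, Nampt, Herpud1 and Kcnip2 kept the sign. In the hearts 1 week after induction Dbp was at 12.21, 12.01 and 12.06, Per3 at 6.33, 6.51 and 6.54 and Noct at 9.52, 9.53 and 9.25. In the hearts at 72 h Dbp was at 13.71, 13.53 and 13.71, Per3 at 8.18, 7.92 and 8.36 and Noct at 11.04, 10.42 and 10.89. The 72 h values thus lay within or near the MCM range for these genes. Those at 1 week lay at or below the adult wildtype values, except that 2 of the 3 Noct arrays lay just above. Other called clock genes did not follow this order at 1 week. Per2 was at 10.25, 10.47 and 10.28 and Tef at 10.44, 10.40 and 10.51, within or just below the MCM range. Clock was at 10.74, 10.96 and 11.02 and Bhlhe40 at 11.50, 11.51 and 11.48, between the adult wildtype and MCM values. Hour of collection is not given for any group, so it cannot be told apart from line in these differences.

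**Figure D2:**
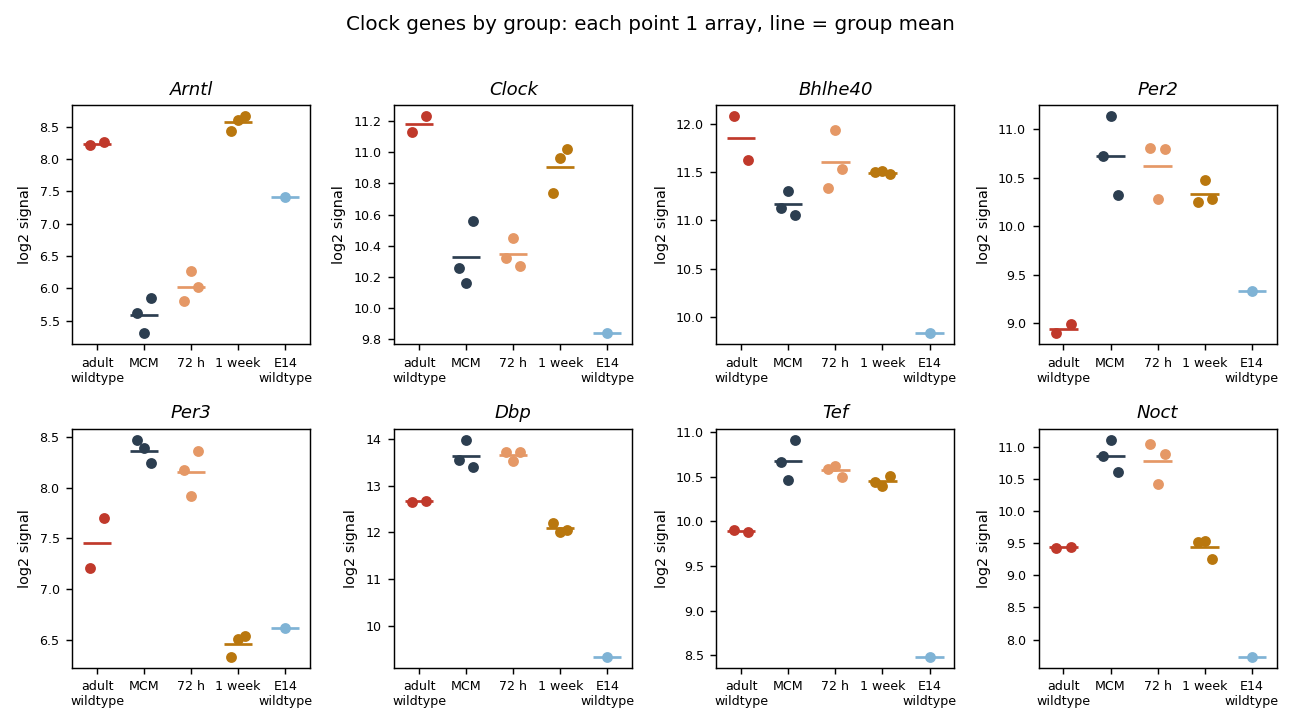
Log2 signal (vertical axis) of 8 called clock genes in adult wildtype, MCM, 72 h, 1 week and E14 hearts (horizontal axis), with 1 point per array and a line at the group mean. Both adult wildtype points lie above all 3 MCM points for Arntl, Clock and Bhlhe40 and below them for Per2, Per3, Dbp, Tef and Noct.

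Several genes were dark in adult wildtype hearts and bright in MCM hearts. Probe sequences were not given in the sources used here. Whether a probe matches the transcript of both lines alike was therefore not tested, for these genes or those below. Rbp7, a retinol-binding protein of fat and endothelium, was at 5.23 and 5.96 in adult wildtype hearts, against 12.56, 12.57 and 12.37 in MCM hearts. It was dark in adult wildtype and among the bright transcripts of the MCM line, at least 49.4-fold lower (log2 difference -6.90 ± 0.40, adjusted p = 8.66e-07). Lrrc2, a leucine-rich repeat protein, was at 5.0 and 5.08 in adult wildtype and at 11.32, 11.32 and 11.43 in MCM hearts (at least 22.3-fold lower, adjusted p = 1.67e-10). Pdrg1, a prefoldin-like protein linked to DNA damage, was at 5.23 and 5.20 in adult wildtype and at 10.57, 10.57 and 10.59 in MCM hearts (at least 13.0-fold lower, adjusted p = 8.44e-10). For these genes the spread within either group was small beside the gap. Ctsc, the lysosomal protease cathepsin C, was at 5.98 and 5.27 in adult wildtype and at 9.63, 9.74 and 9.65 in MCM hearts (at least 6.95-fold lower, adjusted p = 6.87e-06). All 3 of its probes were dark in adult wildtype and detected on every MCM array, whereas Rbp7, Lrrc2 and Pdrg1 rest on 1 probe each.

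Me1, the cytosolic malic enzyme, was dark in adult wildtype hearts and at least 4.98-fold lower than in MCM hearts. The kinase gene Tesk1 was at least 5.71-fold lower, Zfp985 3.84-fold, 1190007I07Rik 4.05-fold and Aph1b, a subunit of gamma-secretase, 2.51-fold, all as lower bounds. Csrp1, a LIM domain protein of smooth muscle, was at 6.25 and 5.50 in adult wildtype and at 9.58, 9.54 and 9.68 in MCM hearts (at least 6.60-fold lower, adjusted p = 4.48e-07). Cops8, a subunit of the COP9 signalosome, was at 7.02 and 6.31 in adult wildtype, detected on the first of these arrays alone, and at 10.67, 10.69 and 10.71 in MCM hearts (log2 difference -4.02, adjusted p = 2.33e-07). All these calls remained in each leave-one-out fit. Lrrc57 was at 5.12 and 5.29 in adult wildtype and at 9.37, 8.96 and 9.38 in MCM hearts (at least 5.14-fold lower, adjusted p = 0.0199). It was also dark in 1 of the 3 hearts at 72 h, at 5.11, which widened its error, and its call was lost on leaving out any 1 of the 5 arrays (adjusted p 0.0525 to 0.156).

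Detection across all 12 arrays was read against line for every gene, by the probe that stands for it, so dark describes that probe's signal. Dark on the 3 arrays of wildtype hearts, adult and E14, and detected on all 9 arrays of the MCM line were 27 genes, 0.266% of those tested. The reverse held for 9 genes, 0.0885%. Of the 27, 22 were called lower, and of the 9, 4 were called higher (Wnt5b, Stxbp3, Ttc30a1 and Xkr8), counts that share the adult wildtype and MCM arrays with the pattern itself. Pdrg1 was at 5.22 in the E14 heart and between 10.27 and 10.67 on every array of the MCM line. The E14 heart had Ctsc at 5.36, against 9.42 to 10.59 on the MCM-line arrays, and Rbp7 at 5.05, against 10.23 to 12.57. Further genes of this pattern were Ttc27 (at least 2.41-fold lower), Atg3, an autophagy enzyme (4.53-fold), Cenpq (1.84-fold), Rpe (4.13-fold) and Trnp1 (2.32-fold). The pattern also took in H2-Eb1, the class II antigen-presenting beta chain, at 5.61 and 5.69 in adult wildtype and at 8.35, 8.25 and 8.65 in MCM hearts (at least 2.91-fold lower, adjusted p = 0.000211). For Gpnmb, Mus81 and Wdr82, all among the 27, a further probe did not show the pattern. A second Gpnmb probe was dark in both groups, at 5.02 and 5.11 in adult wildtype and at 5.14, 5.20 and 5.25 in MCM hearts. A second Mus81 probe was detected in adult wildtype, at 7.05 and 7.23, against 7.92, 7.95 and 7.84 in MCM hearts. Wdr82 was dark in adult wildtype by its main probe, but a different probe was at 7.74 and 7.52 in adult wildtype and dark at 6.66, 6.66 and 6.48 in MCM hearts, the opposite direction. Not every gene dark in adult wildtype belonged here: Csrp1 and the potassium channel subunit Kcne1 were detected in the E14 heart, at 6.93 and 10.73. These genes were named for their pattern after their values were seen.

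**Figure D3:**
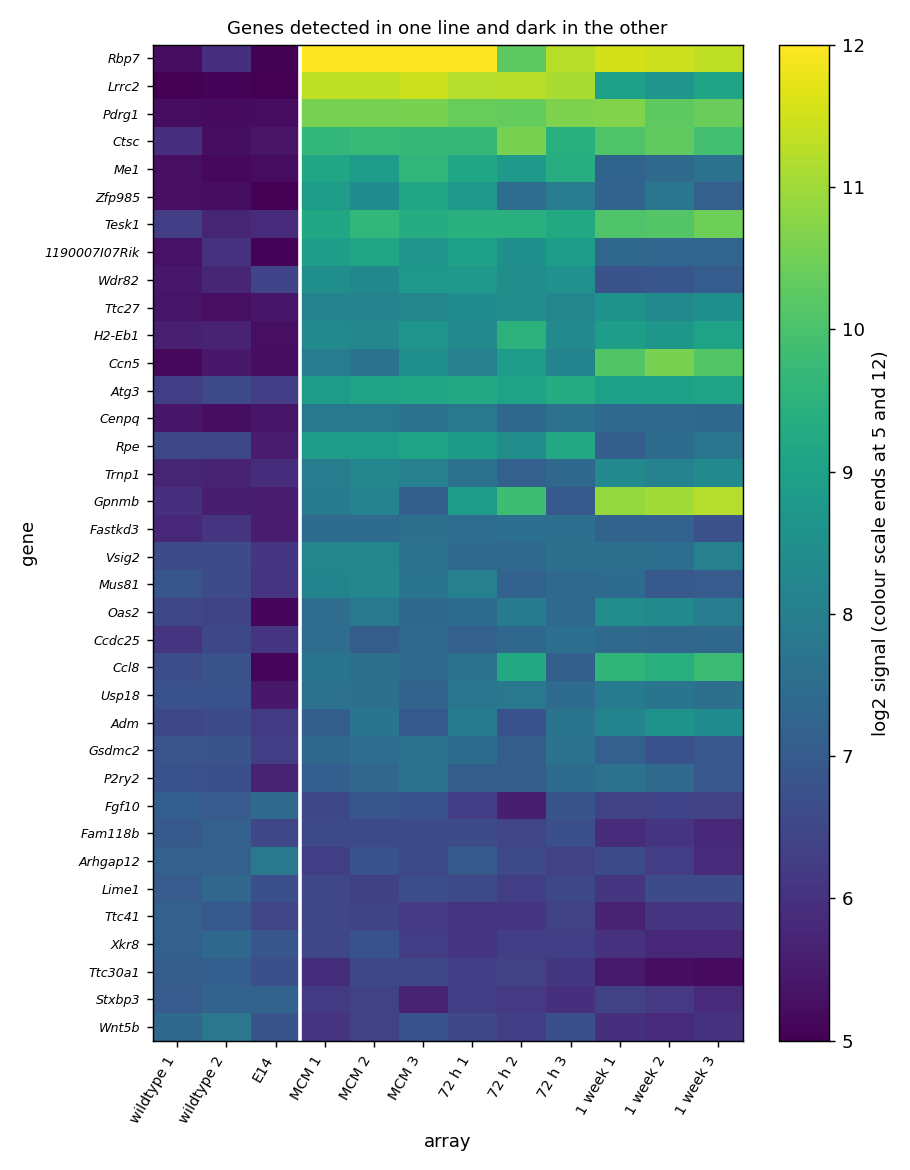
Log2 signal, as colour, of the 27 genes that were, by the probe standing for each, dark on the 3 wildtype arrays and detected on all 9 arrays of the MCM line (upper rows) and of the 9 genes with the reverse pattern (lower rows), 1 column per array. Rbp7, Lrrc2, Pdrg1 and Ctsc have the widest step at the white line between wildtype arrays and MCM-line arrays.

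In the other direction, Xirp2, an actin-binding protein of the intercalated disc and Z-disc, was at 12.89 and 13.27 in adult wildtype hearts, against 9.54, 9.52 and 9.91 in MCM hearts (10.7-fold higher, log2 difference 3.42 ± 0.25, adjusted p = 5.52e-06). In the other hearts of the MCM line Xirp2 was at 11.89, 12.92 and 12.37 at 72 h and at 12.64, 12.62 and 12.99 at 1 week. All these lay above every untreated MCM heart. A second Xirp2 probe was at 8.22 and 8.98 in adult wildtype and at 8.25, 8.23 and 8.36 in MCM hearts, where the groups overlapped, so the probes of the gene disagreed. Dctn1, the large subunit of dynactin, was at 10.20 and 10.33 in adult wildtype and at 7.67, 7.63 and 7.47 in MCM hearts (6.41-fold higher, adjusted p = 4.48e-07). Klk1b26, a glandular kallikrein, was 5.83-fold higher (adjusted p = 0.000807), and its second probe was at 8.42 and 8.41 in adult wildtype and at 6.04, 6.12 and 6.05 in MCM hearts. Serpina1b, an alpha-1 antitrypsin gene best known from liver, was at 8.30 and 8.26 in adult wildtype and dark in MCM hearts (at least 2.69-fold higher, adjusted p = 5.63e-05), and its 2 further probes differed by 2.31 and 2.29. The kallikrein and antitrypsin genes have near-identical copies whose signals a probe may share, so which copy was measured is uncertain. Mid1, a microtubule-associated ubiquitin ligase, was at least 1.92-fold higher, and the peptide transporter Slc15a2 at least 3.08-fold, on 1 of its 2 probes.

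Akr1e1 and Alad stood out among genes known to differ between inbred mouse strains. Of 9 tested, 2 were called higher and none lower, against 2.62% of all genes called higher, with a median of 0.19 against 0.02 over all genes. Akr1e1, an aldo-keto reductase, was at 8.68 and 8.85 in adult wildtype and at 6.40, 6.88 and 6.44 in MCM hearts (at least 3.77-fold higher, adjusted p = 0.00468), a call lost without adult wildtype replicate 2 (adjusted p = 0.0663). Alad, a heme synthesis enzyme whose gene copy number varies between strains, was at 13.00 and 12.94 in adult wildtype and at 12.08, 12.23 and 12.10 in MCM hearts (1.78-fold higher, adjusted p = 0.0116). That call was lost without adult wildtype replicate 1 (adjusted p = 0.118) or 2 (0.0890), without MCM replicate 1 (0.0516), and with the Xist state as a covariate (0.0592). Nnt, the mitochondrial transhydrogenase disrupted in some C57BL/6 substrains, was at 7.86 and 8.12 in adult wildtype and at 8.24, 8.37 and 8.45 in MCM hearts (adjusted p = 0.611), and was detected on all 5 arrays. St3gal4 differed by -0.62 (adjusted p = 0.264).

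H2-Eb1 and 3 interferon-induced genes were lower in adult wildtype hearts. Of 24 tested antigen presentation and interferon genes, 4 were called lower and none higher, with a median of -0.31, against 3.11% of all genes called lower. Besides H2-Eb1, described above, these were Irgm1, an interferon-induced GTPase, at 12.47 and 12.20 in adult wildtype and at 13.05, 13.43 and 13.24 in MCM hearts (1.88-fold lower, adjusted p = 0.00151), Ifit3 (1.69-fold lower, adjusted p = 0.0246) and Usp18 (at least 1.53-fold lower, adjusted p = 0.0427). H2-Eb1 and Usp18 were dark on every wildtype array, adult and E14, so they passed the detection filter only through arrays of the MCM line. Nothing is therefore read from the count of calls in this list. The second Irgm1 probe differed by -0.16 and that of Ifit3 by -0.72. The companion class II genes Cd74 (-0.26, adjusted p = 0.691) and H2-Ab1 (-0.64, adjusted p = 0.294) did not pass. Without adult wildtype replicate 1 or 2, or without MCM replicate 1 or 2, 2 of the list were called. The Ifit3 call was among those lost in these fits (adjusted p 0.0834 to 0.175). With the Xist state as a covariate 2 were called as well, with Ifit3 at adjusted p = 0.108.

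Red cell transcripts were higher in adult wildtype hearts. Alas2, the first enzyme of heme synthesis in red cell precursors, was at 10.95 and 10.71 in adult wildtype, against 8.61, 9.11 and 8.20 in MCM hearts (4.56-fold higher, log2 difference 2.19 ± 0.32, adjusted p = 0.00199). Hba-a1, alpha globin, was at 16.05 and 15.99 in adult wildtype and at 15.06, 15.19 and 14.48 in MCM hearts (2.16-fold, adjusted p = 0.0184), near the top of the scale in adult wildtype. Both groups stood clear of each other for these genes. Hbb-bt, a beta globin, was 1.95-fold higher (adjusted p = 0.0317) and Slc4a1, the red cell anion exchanger, at least 1.83-fold (adjusted p = 0.0461). The 4 probes of Hbb-bt did not agree: 3 were higher and 1 differed by -1.12, and beta globin copies are too alike for their signals to be told apart with confidence. Of 6 tested red cell markers 4 were called higher, against 2.62% of all genes, with a median of 1.04 (0.92 with genes dark in a group at their bound). The call of Alas2 held in every leave-one-out fit. Those of Hba-a1 and Hbb-bt were lost without adult wildtype replicate 1 (adjusted p = 0.152 and 0.224) or 2 (0.123 and 0.157), and that of Hbb-bt also without MCM replicate 2 (0.0725) or 3 (0.0853). The list then had 1 call without either adult wildtype array and 2 without MCM replicate 2 or 3. With the Xist state as a covariate it had 2, with Hbb-bt at adjusted p = 0.0757.

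The summed linear signal of the red cell markers was 193733 to 200148 in adult wildtype and 81821 to 115288 in MCM hearts. Blood left in the tissue was not measured separately, and in bulk tissue more cells of a type and more RNA per cell cannot be told apart. The part of blood in the other differences was not tested. No platelet list was tested, and 2 genes known from platelets came up among the largest differences. Ppbp, a platelet chemokine, was at 9.69 and 9.72 in adult wildtype and at 7.47, 6.66 and 6.76 in MCM hearts (6.70-fold higher, adjusted p = 0.00908), and its second probe differed by 2.98. Tubb1, the beta tubulin of platelets, was at 8.23 and 7.99 in adult wildtype and dark at 5.37, 5.46 and 5.35 in MCM hearts (at least 2.39-fold higher, adjusted p = 0.0039). Both groups stood apart for these genes, but 1 heart at 72 h was high in both (8.87 for Ppbp and 7.27 for Tubb1). The Ppbp call was lost without adult wildtype replicate 1 or 2 (adjusted p = 0.0882 and 0.0890), and that of Tubb1 without replicate 1 (0.0584).

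The fat cell markers Ucp1, Car3, Adipoq and Pparg were higher in adult wildtype hearts. Ucp1, the uncoupling protein of brown fat, was at 7.61 and 7.60 in adult wildtype hearts, against 5.45, 5.12 and 5.30 in MCM hearts (at least 1.69-fold higher, adjusted p = 0.000654). It was low even where detected and dark on every MCM array. Car3, a carbonic anhydrase abundant in fat, was at 9.05 and 9.22 in adult wildtype and at 7.0, 7.16 and 6.79 in MCM hearts (4.44-fold, adjusted p = 0.0213). Adipoq, the fat hormone adiponectin, was at 7.94 and 8.0 in adult wildtype and dark at 6.48, 6.64 and 6.05 in MCM hearts (at least 2.17-fold, adjusted p = 0.033). Pparg, the fat cell regulator, was 1.47-fold higher (adjusted p = 0.0258). These are the 4 of 10 markers that passed the detection filter. Ucp1 and Adipoq were dark on every MCM array, so members passed partly through the arrays where they were high, and nothing is read from the count of calls against the 2.62% of all genes called higher. The summed linear signal of the 4 was 1583 to 1736 in adult wildtype and 649 to 747 in MCM hearts. The Ucp1 call held in every leave-one-out fit. The Pparg call was lost in all but that without MCM replicate 2 (adjusted p 0.0583 to 0.228). The Car3 call was lost in all 5 (adjusted p 0.0551 to 0.163), and the list had 1 call without adult wildtype replicate 1 or 2 or MCM replicate 1 or 3, and 2 without MCM replicate 2.

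Of 12 tested endothelial markers 3 were called higher and none lower, against 2.62% of all genes called higher, with a median of 0.20. Cldn5, a tight junction protein, was at 10.34 and 10.24 in adult wildtype and at 9.20, 9.19 and 9.07 in MCM hearts (2.20-fold, adjusted p = 0.00029). Pecam1 was 1.57-fold (adjusted p = 0.00253) and Esam 1.44-fold higher (adjusted p = 0.00972). The list's summed signal was 38146 to 38592 in adult wildtype and 35805 to 36524 in MCM hearts, a gap narrower than that of Cldn5. Without adult wildtype replicate 1 the list had 1 call, with Pecam1 at adjusted p = 0.0506 and Esam at 0.0673. Esam was lost too without adult wildtype replicate 2 (0.115).

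Of 20 tested immediate early genes, which respond to stimuli within minutes, 4 were called higher and none lower, against 2.62% of all genes called higher, with a median of 0.52 (0.46 with genes dark in a group at their bound) against 0.02 over all genes. Egr1, a growth-responsive transcription factor, was at 12.56 and 12.66 in adult wildtype hearts, against 10.80, 10.90 and 11.23 in MCM hearts (3.10-fold higher, adjusted p = 0.00503). Atf3, a stress-induced factor, was at 7.08 on both adult wildtype arrays and dark at 5.74, 5.59 and 5.46 in MCM hearts (at least 1.17-fold, adjusted p = 0.00503). The groups were apart for both genes. Klf2, a flow-responsive factor of endothelium, was 1.77-fold higher (adjusted p = 0.00398) and Fosl2, an AP-1 subunit, was at 10.24 and 10.22 in adult wildtype and at 9.37, 9.07 and 9.20 in MCM hearts (adjusted p = 0.00961). Fos was at 10.10 and 9.80 in adult wildtype and at 7.74, 8.51 and 7.46 in MCM hearts, but with an adjusted p of 0.051 it did not pass. Without adult wildtype replicate 1 a single gene of the list was called, and without adult wildtype replicate 2 none was. Egr1 then had adjusted p = 0.0521 and 0.0682, Atf3 0.0584 and 0.0587, and Klf2 without replicate 2 had 0.0682. With the Xist state as a covariate 7 were called.

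**Figure D4:**
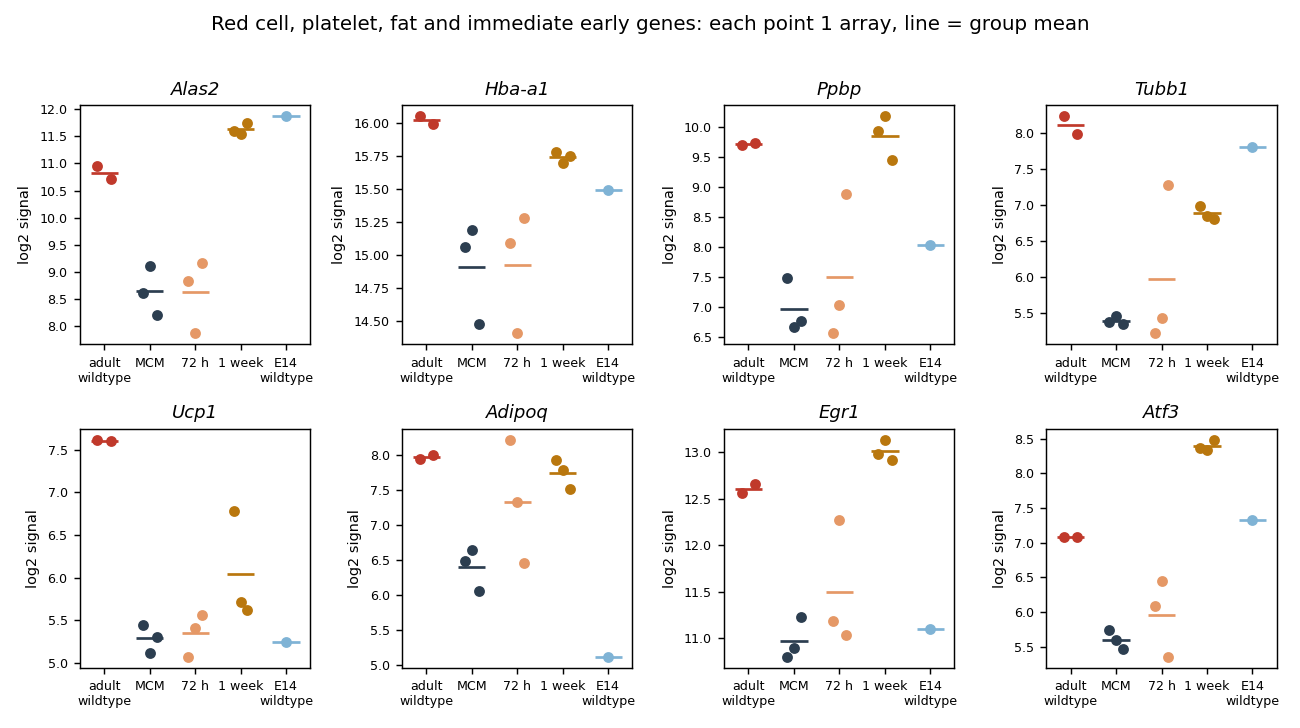
Log2 signal (vertical axis) of red cell (Alas2, Hba-a1), platelet-known (Ppbp, Tubb1), fat cell (Ucp1, Adipoq) and immediate early genes (Egr1, Atf3) in each group (horizontal axis), with 1 point per array and a line at the group mean. In all 8 panels both adult wildtype points lie above the 3 MCM points.

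Errfi1, Sgk1 and Dusp1, which respond to glucocorticoid hormones among other stimuli, were higher in adult wildtype hearts. Of 16 tested glucocorticoid response genes these 3 were called higher and none lower, against 2.62% of all genes called higher, with a median of 0.29. Errfi1, a feedback inhibitor of EGF receptor signalling, was at 11.65 and 11.61 in adult wildtype and at 10.63, 10.66 and 10.32 in MCM hearts (2.13-fold, adjusted p = 0.000783). Sgk1, a kinase induced by steroid hormones, was at 12.63 and 12.58 in adult wildtype and at 11.72, 11.77 and 11.96 in MCM hearts (1.73-fold, adjusted p = 0.00854). Dusp1, a phosphatase that is also an immediate early gene, was 1.88-fold higher (adjusted p = 0.0141). Of other glucocorticoid targets, Fkbp5 differed by -0.09 (adjusted p = 0.936) and Tsc22d3 by 0.10 (adjusted p = 0.739), and their groups overlapped. Errfi1 kept its call in every leave-one-out fit. Sgk1 lost it without adult wildtype replicate 1 (adjusted p = 0.0947) or 2 (0.0760), and Dusp1 without either of them (0.113 each) or without MCM replicate 1 (0.0531).

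None of the 18 tested fasting and PPAR target genes was called by limma, and 2 had an unadjusted p below 0.05. Pdk4, the kinase that shuts off pyruvate oxidation in fasting, was at 13.79 and 13.55 in adult wildtype and at 12.40, 11.45 and 13.27 in MCM hearts (log2 difference 1.30 ± 0.45, adjusted p = 0.128), so the MCM hearts were widely spread. Acot1 differed by 0.81 (adjusted p = 0.332), and Fgf21 was dark on all 5 arrays. In the insulin and feeding list 1 of 17 was called higher and 1 lower, against 5.72% of all genes called. Irs2, an insulin receptor substrate, was at 8.73 and 9.15 in adult wildtype and at 7.92, 7.80 and 7.63 in MCM hearts (2.23-fold higher, adjusted p = 0.00114, held in every leave-one-out fit). Irs1 was dark in adult wildtype and at least 1.47-fold lower (adjusted p = 0.0489), a call lost on leaving out any 1 of the 5 arrays (adjusted p 0.0611 to 0.292). Foxo3 differed by -0.98 (adjusted p = 0.0546).

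Of 15 heat and cold response genes 2 were called higher, against 2.62% of all genes, with a median of -0.12. Hspa1a, the inducible HSP70, was at 8.03 and 7.70 in adult wildtype and dark at 6.60, 6.17 and 6.21 in MCM hearts (at least 2.01-fold higher, adjusted p = 0.00301). Its near-identical neighbour Hspa1b was dark on both adult wildtype arrays and detected on 1 of 3 MCM arrays, so it could not be compared. Which of the copies was measured is uncertain. Dnajb1, a partner of HSP70, was 1.43-fold higher (adjusted p = 0.0262). The other 13 did not pass, among them the cold-induced Cirbp (-0.19) and Rbm3 (0.44) and the chaperonin gene Hspd1 (-0.36). Without adult wildtype replicate 1 Hspa1a was at adjusted p = 0.0593 and Dnajb1 at 0.318, and Dnajb1 was also lost without MCM replicate 1 (0.0632) or 3 (0.0712).

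**Figure D5:**
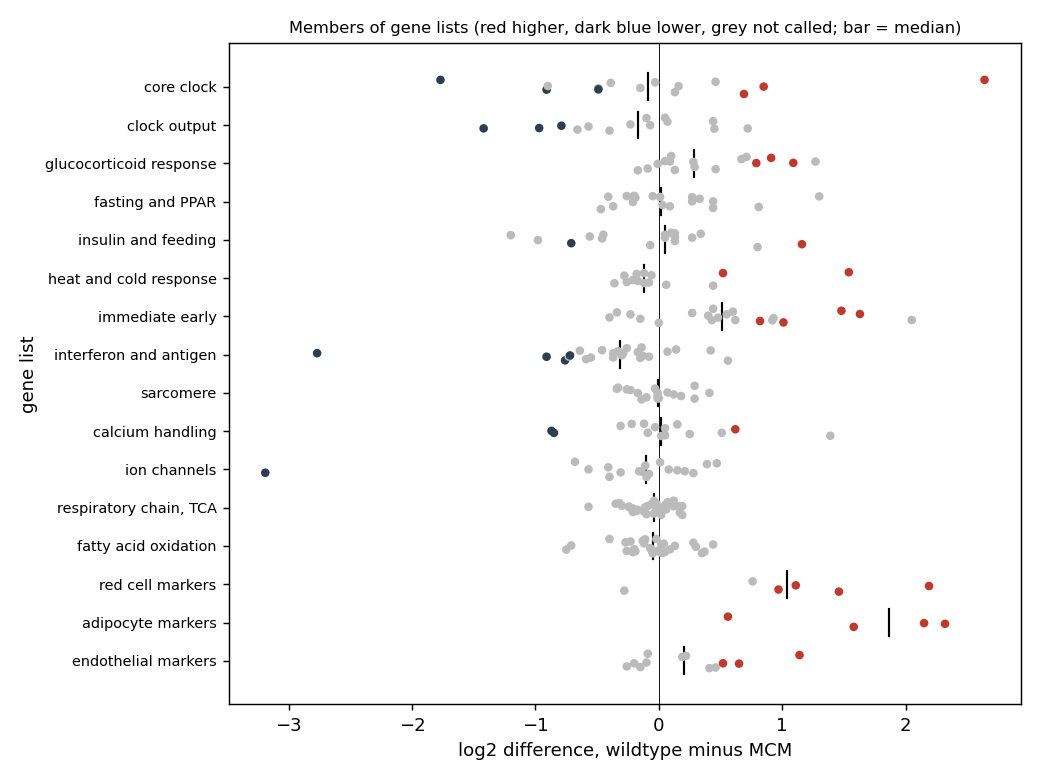
Log2 difference between adult wildtype and MCM hearts (horizontal axis) of the tested members of 16 gene lists (rows), 1 point per gene, red where called higher, dark blue where called lower and grey where not called, with a bar at the list's median. The respiratory chain, fatty acid oxidation and sarcomere rows hold no called gene in the fit over 12 arrays.

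By the probe standing for each gene, genes of contraction and of oxidative metabolism held no call in the fit over 12 arrays. No gene was called by limma among 18 tested sarcomere genes (median -0.01, from -0.34 to 0.41), 33 of the respiratory chain and TCA cycle (median -0.04, from -0.57 to 0.19) or 30 of fatty acid oxidation (median -0.05, from -0.75 to 0.44), against 5.72% of all genes. At an unadjusted limma p below 0.05 there were 3, 1 and 3 genes in these lists. The members with the smallest p included Tcap (-0.33, adjusted p = 0.183), Ttn (-0.23, 0.238) and Tpm1 (0.41, 0.253) of the sarcomere, Sdhd (-0.57, 0.0648), Ogdh (-0.35, 0.311) and Idh2 (-0.32, 0.372) of the TCA cycle, and Slc27a1 (-0.75, 0.0856), Ech1 (-0.40, 0.153) and Hadh (-0.71, 0.180) of fatty acid oxidation. Of these, Tpm1, Sdhd, Ogdh, Slc27a1, Ech1 and Hadh were called on the 5 arrays alone and with array weights, Tcap and Ttn with array weights, and Slc27a1 also with the Xist state as a covariate. In glycolysis 1 of 19 was called, against the same 5.72% of all genes. This was Pfkl, the liver type of phosphofructokinase, at 12.09 and 12.25 in adult wildtype and at 12.80, 12.86 and 12.91 in MCM hearts (1.61-fold lower, adjusted p = 0.000743). Its second probe differed by -0.15. Pdk1 (0.39, adjusted p = 0.0812) and Hk1 (-0.64, adjusted p = 0.0840) did not pass.

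Kcne1, an ion channel gene, and 3 calcium-handling genes were called. Kcne1, the small subunit of the slow delayed rectifier potassium channel, was at 5.47 and 5.48 in adult wildtype, against 8.93, 8.91 and 8.14 in MCM hearts (at least 3.45-fold lower, adjusted p = 0.000152). It was dark on both adult wildtype arrays and was the single call among 18 ion channel genes, against 5.72% of all genes. A second Kcne1 probe was dark on all 5 arrays and differed by -0.13. Hcn2 (-0.68, adjusted p = 0.0992) and Kcnj11 (-0.57, adjusted p = 0.158) came next without passing. Of 15 calcium-handling genes 1 was called higher and 2 lower, against the same 5.72% of all genes. Jph2, which couples the T-tubule to the sarcoplasmic reticulum, was at 11.06 and 10.91 in adult wildtype and at 11.89, 11.65 and 11.95 in MCM hearts (1.80-fold lower, adjusted p = 0.00573). Its 2 further probes differed by -0.19 and -0.50. Cacna2d1, a calcium channel subunit, was 1.82-fold lower (adjusted p = 0.00266), but its further probes differed by -0.28 and 0.44, and on the mean of its probes it was not called (adjusted p = 0.313). Cacna1c, the L-type channel pore, was 1.54-fold higher (adjusted p = 0.0367), a call lost on leaving out any 1 of the 5 arrays (adjusted p 0.0625 to 0.287). Jph2 was lost without adult wildtype replicate 2 (0.0861) and on the mean of its probes (0.102). Atp2a2 (0.02), Pln (-0.09) and Ryr2 (0.05), the pump, its inhibitor and the release channel, did not pass.

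Among stress genes the natriuretic peptides did not pass. Nppb was at 14.77 and 14.57 in adult wildtype and at 13.43, 13.50 and 13.51 in MCM hearts (log2 difference 1.19 ± 0.49, adjusted p = 0.201), with the groups apart. The hearts at 72 h, whose spread enters the error, were at 13.99, 15.73 and 13.23. Nppb was called on the 5 arrays alone (adjusted p = 3.76e-05) and with array weights (0.000506). Nppa was at 15.86 and 15.95 in adult wildtype and at 16.04, 16.07 and 14.23 in MCM hearts (adjusted p = 0.675). Myl4, the atrial light chain, was at 14.40 and 14.75 in adult wildtype and at 14.60, 15.13 and 10.70 in MCM hearts. Sln, the atrial calcium pump regulator, was at 13.34 and 13.35 in adult wildtype and at 13.34, 13.89 and 8.62 in MCM hearts. MCM replicate 3 was thus low in all 3 genes and the other MCM hearts were not. None of 8 atrial markers was called by limma, and none had an unadjusted p below 0.05. With the Xist state as a covariate Nppa, Myl4 and Sln were called. Within groups that state varied only in MCM hearts and hearts at 72 h, where replicate 3 alone was low in Xist. Replicate 3 was also the lowest of both groups in these genes, at 72 h with Nppa at 14.66, Myl4 at 12.32 and Sln at 10.54. Xist state and atrial gene level therefore cannot be told apart in that fit.

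Of genes tied to myotonic dystrophy, Dmpk was called lower on 1 of 2 probes. Mbnl1 (0.17, adjusted p = 0.548) and Celf1 (0.03, adjusted p = 0.904), the splicing regulators affected by CUG repeats, did not pass. Dmpk, which carries the repeat in patients, was at 12.89 and 13.08 in adult wildtype and at 13.71, 13.60 and 13.60 in MCM hearts (1.57-fold lower, adjusted p = 0.00579). A second, dimmer Dmpk probe was at 8.0 on both adult wildtype arrays and at 7.98, 7.81 and 8.14 in MCM hearts, so the probes disagreed. Its neighbour Dmwd was 1.41-fold lower (adjusted p = 0.00798), with further probes at 0.05 and -0.52. Rbfox2, a splicing regulator, was at 9.62 and 9.23 in adult wildtype and at 8.38, 8.32 and 8.57 in MCM hearts (2.00-fold higher, adjusted p = 0.00266, second probe 0.74). Srsf5 was 0.51 lower (adjusted p = 0.0211), which makes 1 higher and 3 lower of 19 tested, against 5.72% of all genes called. Without adult wildtype replicate 1 the calls of Dmpk (0.0976), Dmwd (0.130) and Rbfox2 (0.0567) were lost. On the mean over their probes Dmpk (0.150) and Dmwd (0.128) were not called.

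In the extracellular matrix list 1 of 29 was higher and 2 lower. Over all genes 5.72% were called, the share that stands beside this count and those of the cell cycle and stress response lists below. Timp3, an inhibitor of matrix proteases, was at 11.48 and 11.59 in adult wildtype and at 12.64, 12.80 and 12.40 in MCM hearts (2.11-fold lower, adjusted p = 0.00262), and its second probe differed by -1.32. Ccn5, a matricellular protein, was dark in adult wildtype and at least 2.25-fold lower (adjusted p = 0.00015). Col4a1, basement membrane collagen, was 2.17-fold higher (adjusted p = 0.0465), a call lost on leaving out any 1 of the 5 arrays (adjusted p 0.0868 to 0.253). Of 27 cell cycle genes only Ccnd2, cyclin D2, was called (1.54-fold lower, adjusted p = 0.00941, with all 3 probes lower), and this was lost without adult wildtype replicate 2 (0.148). Of 25 genes of the unfolded protein and integrated stress responses, Chac1, a glutathione-degrading enzyme induced by ATF4, was 2.35-fold higher (adjusted p = 0.00798) and Sesn2 at least 1.05-fold lower (adjusted p = 0.00608). Atf4 itself differed by 0.44 (adjusted p = 0.0974). The Chac1 call was lost without adult wildtype replicate 1 (0.0609) or 2 (0.0990), and that of Sesn2 without replicate 1 (0.102).

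Among skeletal muscle markers, of which 7 of 12 were tested, 1 was called higher and 2 lower, against 5.72% of all genes called. A further 2 made 5 with an unadjusted p below 0.05, and the median was -1.25 (-0.38 with genes dark in a group at their bound). Atp2a1 (at least 1.30-fold lower, adjusted p = 0.00293) and Pvalb (at least 1.40-fold lower, adjusted p = 0.0229) were dark in adult wildtype, while Casq1 was 1.89-fold higher (adjusted p = 0.00981). The skeletal list's summed signal was 4040 to 4061 in adult wildtype and 3924 to 4198 in MCM hearts, so the groups overlapped. All 3 calls were lost without adult wildtype replicate 1 (adjusted p = 0.0515 for Atp2a1, 0.107 for Pvalb and 0.0821 for Casq1). The calls of Pvalb and Casq1 were lost without adult wildtype replicate 2 as well (0.193 and 0.105), and that of Pvalb without MCM replicate 1 (0.0828) or 2 (0.0536). Of 18 macrophage markers 1 was called, against the same 5.72% of all genes. This was Cd163, a scavenger receptor of resident macrophages, at 7.5 and 7.43 in adult wildtype and at 8.81, 9.07 and 8.40 in MCM hearts (2.46-fold lower, adjusted p = 0.00608). It was lost without adult wildtype replicate 1 (0.0605) or 2 (0.0746). Sox10, of Schwann cells, was dark in adult wildtype and at least 1.24-fold lower (adjusted p = 0.0494), a call lost on leaving out any 1 of the 5 arrays (adjusted p 0.0710 to 0.375). No limma call was made among the markers of neutrophils (S100a8 at -0.53), fibroblasts (Pdgfra at 0.30) or smooth muscle (Acta2 at -0.86, adjusted p = 0.0601), with 3, 2 and 3 of them at an unadjusted p below 0.05. The 3 further Acta2 probes differed by -0.91, -1.33 and -1.42. Acta2 was called on the mean over its probes (-1.13, adjusted p = 0.0166), with array weights (0.0022), with the Xist state as a covariate (0.0107), on probes detected in either group, and without MCM replicate 2 or replicates 1 and 2. None was made among those of T and B cells, lung or thymus, with 0, 0 and 1 at that level. Of these the Cd3 genes, Sftpc and Rag1 were dark on all 5 arrays. The summed signal of the smooth muscle markers was 35633 to 36089 in adult wildtype and 40556 to 54822 in MCM hearts.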

How the data were processed

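Each deposited array file held, per the file headers, the mean bead signal of each probe, an intensity on a linear scale, and a detection score, a fraction from 0 to 1. The deposited value table held intensities that the authors had mapped by quantiles onto a master array. That mapping, recomputed from the array files, matched the table for all 45281 probes within 0.001. Which software read the arrays is not stated in these sources. Of the probes, 34885 had 1 gene symbol in the platform annotation, 18 several and 10378 none. Symbols were updated through RefSeq (GRCm38.p6), with 78 identifiers unmatched. Coordinates are printed for RefSeq promoters alone, since the probes come with no build.

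Signals were background-corrected (nec, offset 16), quantile normalized and put on a log2 scale in limma 3.58.1 under R 4.3.3. The detection p is 1 minus the score. The 18370 probes that had it below 0.01 throughout some group were kept. Each of 10169 genes was represented by its brightest kept probe. A gene or probe is called dark on an array where its detection p was 0.01 or more. A single limma model of group means over all 12 arrays, with 7 residual degrees of freedom and an intensity trend, gave every log2 difference, standard error (after ±) and adjusted p. The number of arrays limits the precision. Bounds ("at least") set the brighter group's mean against the lowest signal among detected probes of each dim array, or the gene's measured value there if higher. The files carry no saturation flag. The model fit was tested on simulated log2 values. Background correction, normalization, filter, probe choice and bounds were not part of that simulation.

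Named were the 12 largest called differences in each direction, among genes detected on every array of the brighter group with non-overlapping groups, all tested clock genes, the 3 members with the smallest p of each other list, and Esr1, Myh6, Xist, Nnt, Nppa, Nppb, Mbnl1, Celf1 and Dmpk. Other list members were named after their values were seen. The groups, the lists and these rules were chosen with earlier results of these data known. Background correction, normalization, filter, probe choice, arrays in the model, array weights, trend, Xist state, replicate numbers and each replicate were varied.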

Additional observations from a re-analysis of the deposited data

How the results depend on the processing

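Counts of called genes were 582 (266 higher, 316 lower) and stayed within 1.5 times of this without background correction (572), on the authors' value table (575), with scaling to the 75th percentile (577), without the intensity trend (541), with the Xist state as a covariate (490), without a filter (514), on probes detected in either group (638) and on the mean of each gene's probes (692). On the 5 arrays alone 1116 were called (568 higher, 548 lower), with array weights 2146 (1122 higher, 1024 lower), on probes detected on all 12 arrays 373 of 7242 genes (176 higher, 197 lower), and without the 1 week and E14 arrays 342 (142 higher, 200 lower). The weights were not fitted to their convergence tolerance. Without single replicates the counts ran from 187 to 492, 62 to 221 of them higher and 125 to 271 lower; where 1 adult wildtype array was left, it was assumed to vary like the other groups. Without MCM replicates 1 and 2, an alternative chosen after seeing the data, 127 were called (47 higher, 80 lower). Core clock genes called higher were 2 to 3 without single replicates and 1 without MCM replicates 1 and 2. Those called lower were 1 to 3 without single replicates, 1 without MCM replicates 1 and 2, 1 on probes detected on all 12 arrays and 6 with array weights. Clock output genes called lower were 5 on the 5 arrays alone and 6 with array weights. The causes were not tested. Of the 72 called genes that the naming rule took in, 35 kept their call without any single replicate, and over all alternatives 1137 of 1326 values kept direction and call, 189 kept direction alone and none reversed; called genes named outside the rule were not followed singly. Deviations of adult wildtype and MCM arrays with the same replicate number correlated at 0 and 0.04, but 2 adult wildtype arrays cannot decide on pairing. Pairing of MCM hearts with those at 72 h was not tested, and replicate 3 stood apart in Xist and atrial genes in both. With the replicate number as a block, over 11 arrays, 496 genes were called (222 higher, 274 lower). No scaling moved the median of all genes by more than 0.1. A block for chip was not run because the headers name no chip. Signal near background limits the 62 genes called higher and dark in MCM hearts and the 88 called lower and dark in adult wildtype hearts.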
